A study of Osmanthus fragrans with 6 samples.

Results

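A set of 302 petal transcripts of Osmanthus fragrans var. semperflorens, out of 96596 assembled transcripts, at least doubled in level at each of 2 successive steps of flowering, from full bloom to late full bloom and from late full bloom to abscission. The members were chosen by these measured values: at least 2-fold higher at late full bloom than at full bloom, at least 2-fold higher again at abscission, at least 20 CPM (counts of a transcript relative to the total of its library) at abscission, at least 5 counts at full bloom, and not among the 100 most abundant transcripts of the 5 deep libraries. Their rise in round 1 is therefore a description, not a finding, and it carries no test. The values that did not choose them by their course are those of round 2 and of the initial stage of round 1.

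The plant is a sweet osmanthus that blooms repeatedly, and the series follows petal colour and carotenoid genes over flowering. Petals of untreated trees growing outdoors were taken in September on different dates, by stage. Flowering round 1 gave the libraries initial 1, full 1, late full 1 and abscission 1, and round 2 gave initial 2 and full 2. Each group is 1 library pooled from 5 replicates, so no spread between plants was measured, no difference between stages has a replicate check, and no p-value is given.

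Petals are short-lived organs. After opening, petal cells pass through a programmed senescence in which cell contents are broken down and partly moved back into the plant, and the petal is then shed when an abscission layer at its base loses cell adhesion. In many flowers, ethylene and other hormones regulate the timing, and transcripts for nutrient recovery, degradation and cell wall loosening are known to accumulate late in petal life. The deposited table pairs the transcript IDs with no gene names and no sequences, so the functions of the 302 transcripts are not given here and each is named by its ID.

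Initial 1 stood apart from the other libraries in depth. It held 107466 counts, against 17826687 to 39119106 in the other 5 libraries. A single count in initial 1 stood for 9.31 CPM, and 3 counts, taken as the floor of detection, for 27.9 CPM. In the other 5 libraries 1 count stood for 0.0256 to 0.0561 CPM. Of the 302 members, 171 had 0 counts in initial 1, while in each of the other 5 libraries 302 had at least 1 count. Values from initial 1 are therefore given over members summed, or for single members with their counts.

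In the order of flowering, the members together held 0.377% of the counts of full 1 (95% Clopper-Pearson interval 0.374 to 0.380%), 1.82% of late full 1 (1.81 to 1.82%) and 7.61% of abscission 1 (7.60 to 7.63%). In round 2 they held 1.59% of full 2 (1.58 to 1.60%) and 0.516% of initial 2 (0.513 to 0.518%). The intervals cover counting error only, since each stage is 1 library. They treat reads as independent molecules, which sequenced reads are not, so they may be too narrow. The 10 members most abundant at abscission made up 30.3% of the members' counts in abscission 1 and 12.9% in full 1. In pooled petal tissue, more cells of a type and more RNA per cell cannot be told apart in such shares.

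The median member stood at 4.60 CPM in full 1, 21.1 CPM in late full 1 and 91.2 CPM in abscission 1. Levels ranged from 0.253 to 188 CPM in full 1, from 1.31 to 636 CPM in late full 1 and from 20.03 to 3668 CPM in abscission 1. At abscission, 99 members lay between 20 and 50 CPM, 58 between 50 and 100 CPM, 128 between 100 and 1000 CPM and 17 above 1000 CPM. The members thus spanned a wide range of abundance at every stage.

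**Figure D1:**
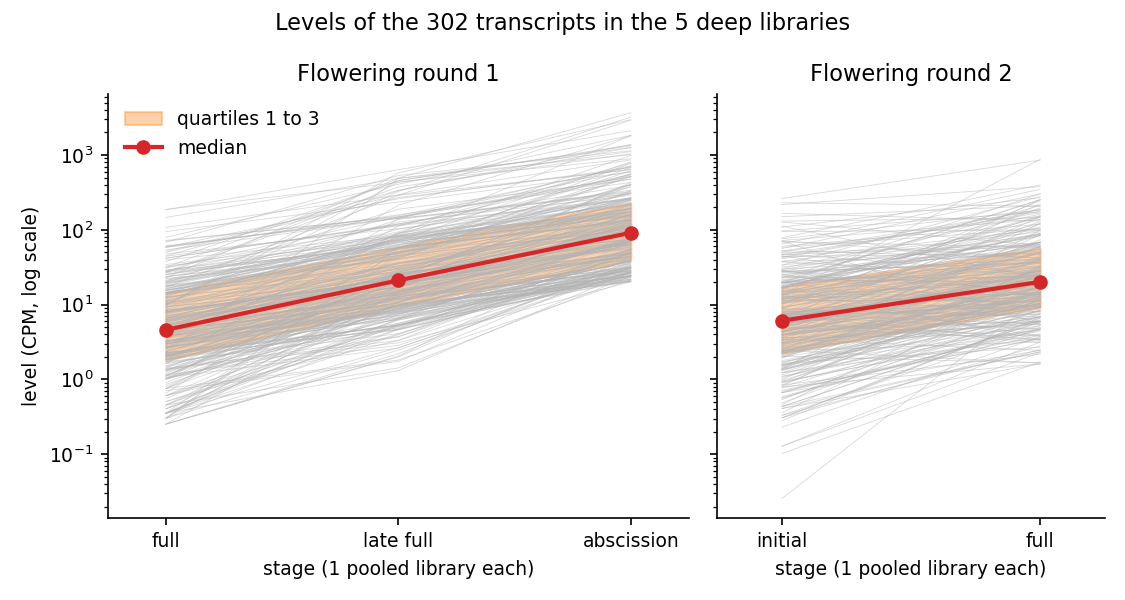
Levels in CPM (log axis) of the 302 members in full 1, late full 1 and abscission 1 (left) and in initial 2 and full 2 (right). Each grey line is 1 transcript, the band runs from quartile 1 to quartile 3 and the red points are the medians, which stood at 4.60, 21.1 and 91.2 CPM in round 1, and at 20.2 CPM in full 2 and 6.10 CPM in initial 2. The rise in the left panel was required by the rule that chose the transcripts, and that in the right panel was not.

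The first step, late full 1 over full 1, had a median of 3.85-fold and ran from 2.02 to 210-fold. The second step, abscission 1 over late full 1, had a median of 3.83-fold and ran from 2.01 to 35.4-fold. Over both steps, abscission 1 over full 1 had a median of 15.9-fold, with 150 members at 16-fold or more and 59 at 64-fold or more. The first step was the larger in 155 members and the second in 147. Across the 299 members with at least 50 counts in initial 2 and full 2 together, the log2 sizes of the steps were weakly related (Pearson r of 0.11, Spearman rho of 0.11), and both ratios share the library late full 1. Among transcripts with at least 50 counts in the pair, 8.32% of all transcripts were at least 2-fold higher in late full 1 than in full 1, and 10.1% in abscission 1 than in late full 1. Since the rule used both pairs, nothing is read from the members' own share there.

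The 2 most abundant members at abscission were c161885_g2_i1 and c136696_g2_i1. Transcript c161885_g2_i1 stood at 23.0 CPM in full 1, 492 CPM in late full 1, 3668 CPM in abscission 1, 212 CPM in full 2 and 21.1 CPM in initial 2, with 1 count in initial 1. It was lowest in initial 2 and full 1 among the deep libraries, and full 2 lay between full 1 and late full 1. Transcript c136696_g2_i1 had 198 counts in full 1 and 0 in initial 1, and stood at 326 CPM in late full 1, 3208 CPM in abscission 1, 875 CPM in full 2 and 13.4 CPM in initial 2. Its full 2 level was above that of late full 1, 2.68-fold, and below that of abscission 1.

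The largest rises over both steps were those of c152118_g1_i1 and c192513_g1_i1. Transcript c152118_g1_i1 stood at 0.303 CPM in full 1, on 6 counts, then at 55.9 CPM in late full 1, 508 CPM in abscission 1, 10.2 CPM in full 2 and 2.07 CPM in initial 2. Transcript c192513_g1_i1 stood at 0.354 CPM in full 1, on 7 counts, then at 47.6 CPM in late full 1, 406 CPM in abscission 1, 21.5 CPM in full 2 and 0.460 CPM in initial 2. In both, most of the rise on the log scale fell in the first step, 184-fold for c152118_g1_i1 and 135-fold for c192513_g1_i1, against 9.09-fold and 8.54-fold in the second. These large folds rest on counts close to the minimum of 5 in full 1.

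At the threshold, the member c146000_g1_i1 stood at 9.34 CPM in full 1, 19.9 CPM in late full 1 and 40.0 CPM in abscission 1, with steps of 2.13-fold and 2.01-fold. The nearest transcript left out, c145011_g1_i1, stood at 42.8 CPM in full 1, 85.6 CPM in late full 1 and 223 CPM in abscission 1, with steps of 1.998-fold and 2.61-fold. A further 13 transcripts passed both steps and were left out only for being among the 100 most abundant. In the order of flowering these 13 held 0.230% of the counts of full 1, 2.64% of late full 1 and 11.2% of abscission 1, more at the end than the 302 members together.

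Full against initial bloom in round 2 is a pair of libraries that shares none with the 3 whose values set the course of the members. In it, 210 of the 299 members with at least 50 counts in the pair (70.2%) were at least 2-fold higher in full 2 than in initial 2, where 12.6% of all 25501 such transcripts were. At least 4-fold higher were 141 members (47.2%), against 5.73% of all transcripts. At least 2-fold lower in full 2 were 10 members (3.34%), against 30.3% of all transcripts, and 79 members lay within 2-fold. The ratios for these counts included 2 prior counts scaled to library size.

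The median member stood at 20.2 CPM in full 2 and 6.10 CPM in initial 2. The median log2 ratio of full 2 to initial 2 was 1.87 over the members (quartiles 0.83 and 2.83) and -0.41 over all transcripts. The median of all transcripts depends on scaling: it was -0.07 with TMM factors (a scaling that sets the typical transcript equal between libraries) from the 5 deep libraries, and the members' median was then 2.20. The members' median thus lay 2.27 above that of all transcripts on either scale. A scaling factor shifts the ratios of all transcripts almost alike, so this distance could hardly change and is no check of the result. Summed over members, the level was 15899 CPM in full 2 and 5157 CPM in initial 2, a ratio of 3.08 (95% interval 3.07 to 3.10, counting error only).

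**Figure D2:**
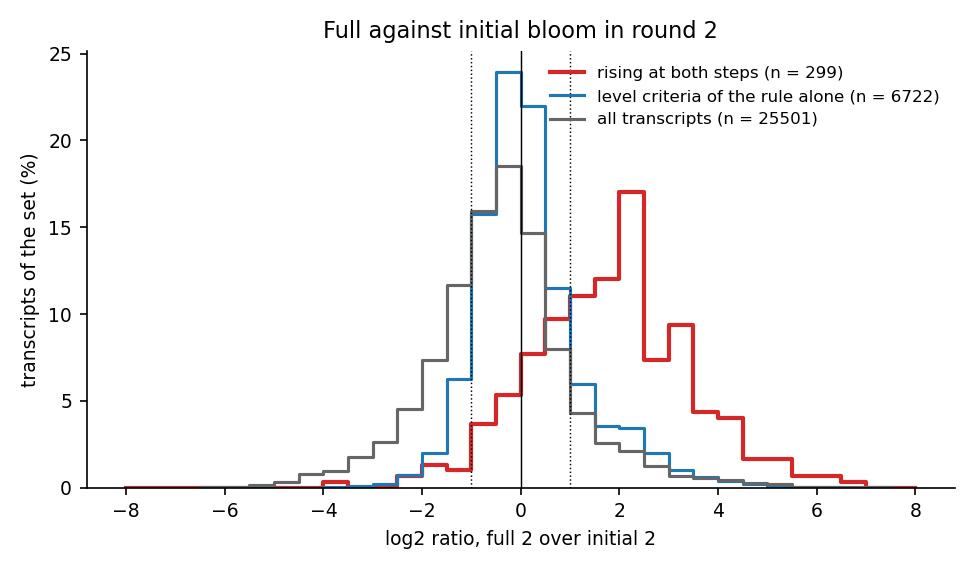
Distribution of the log2 ratio of full 2 to initial 2 in bins of 0.5, as the percentage of each set, for the 299 members, for the 6722 transcripts that pass the rule's level criteria with no condition on the steps, and for all 25501 transcripts with at least 50 counts in the pair. Dotted lines mark 2-fold. The members' distribution lies to the right of both others, with a median of 1.87 against 0.02 and -0.41.

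The level criteria of the rule already leave out scarce transcripts, so a narrower background was also counted. Of 6722 transcripts that pass the level criteria of the rule, members included, 17.5% were at least 2-fold higher in full 2 than in initial 2 and 9.34% at least 2-fold lower, around a median log2 ratio of 0.02. The 2 neighbouring courses over full 1, late full 1 and abscission 1 were set beside the members. Of 315 transcripts that rose at least 2-fold at the first step and then stayed within 2-fold, 54.3% were at least 2-fold higher in full 2 and 1.59% at least 2-fold lower, with a median of 1.08. Of 397 transcripts that stayed within 2-fold at the first step and then rose at least 2-fold, 45.8% were higher and 8.82% lower, with a median of 0.86. The share higher in full 2 was thus largest in the members, and with 1 library per stage the difference between the courses was not tested.

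**Figure D3:**
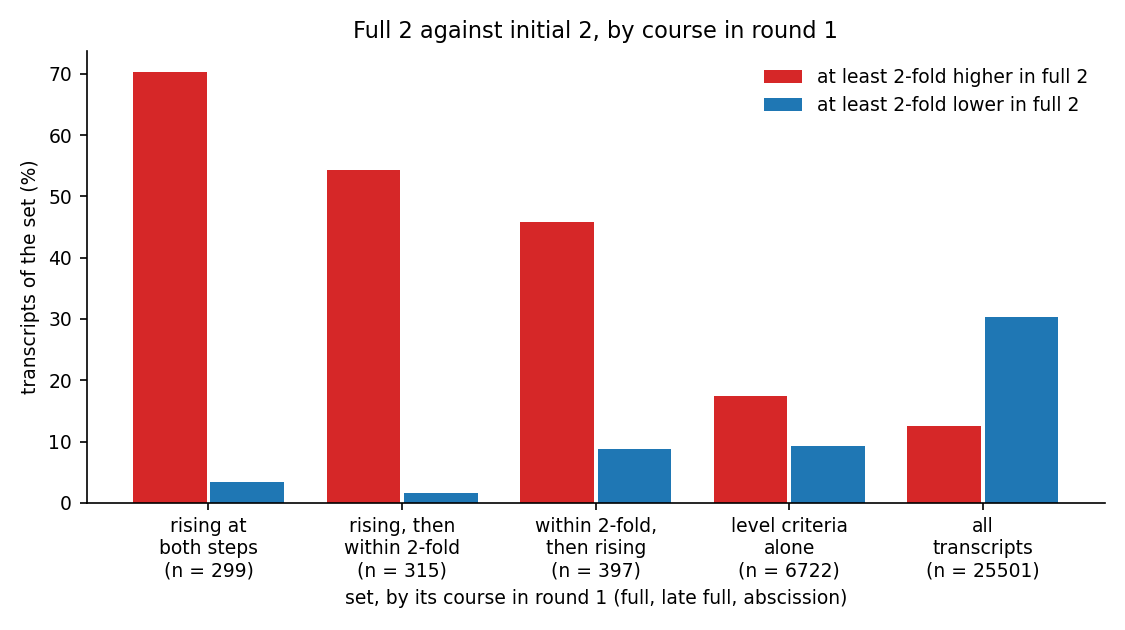
Percentage of transcripts at least 2-fold higher (red) or lower (blue) in full 2 than in initial 2, by course in full 1, late full 1 and abscission 1, with the number of transcripts that had at least 50 counts in the pair below each set. The members, rising at both steps, had 70.2% higher and 3.34% lower, and all transcripts had 12.6% and 30.3%.

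Members that rose more in round 1 tended to differ more in round 2. In 4 equal groups of the members by their rise over both steps, from the smallest to the largest, 56.6%, 66.7%, 70.7% and 87.7% were at least 2-fold higher in full 2 than in initial 2. The median log2 ratio of full 2 to initial 2 was 1.21 in the group with the smallest rises and 2.91 in that with the largest. The larger ratio went with a lower level in initial 2 and not with a higher level in full 2. From the group with the smallest rises to that with the largest, the median level in initial 2 fell from 12.65 to 1.777 CPM. In full 2 it fell from 27.94 to 13.05 CPM. The rise over both steps and the round 2 ratio share no library, and across the 299 members they correlated at r of 0.45 (rho 0.41). Taken by step, the round 2 ratio correlated at r of 0.49 (rho 0.43) with the first step and at r of 0.13 (rho 0.13) with the second. Members are not independent replicates, many have low counts in full 1 or initial 2, and these correlations are a description.

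By steps of at least 4-fold, 71 members passed at both steps, 72 at the first alone, 69 at the second alone and 90 at neither. The median log2 ratio of full 2 to initial 2 was 2.71 in the members passing at both, 2.17 in those passing at the first alone, 1.39 in those passing at the second alone and 1.48 in those passing at neither. None of the 10 members that were lower in full 2 had a first step of at least 4-fold. Abundance at abscission showed no such gradient: in 4 equal groups from the least to the most abundant, 72.0%, 68.5%, 68.0% and 72.4% were at least 2-fold higher in full 2.

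**Figure D4:**
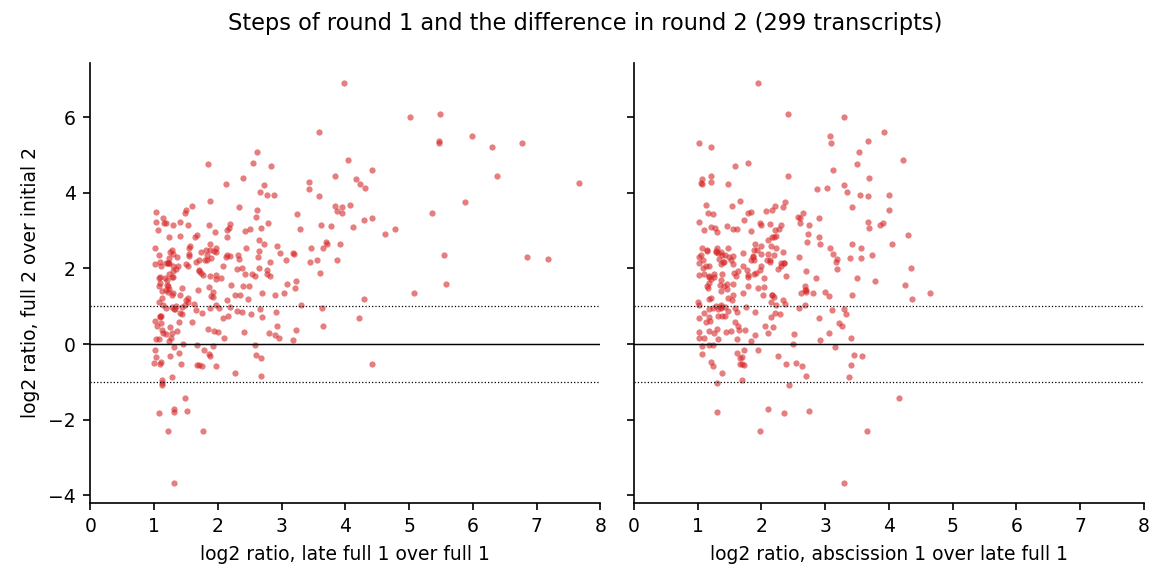
Log2 ratio of full 2 to initial 2 for the 299 members with at least 50 counts in the pair, against the log2 size of the first step (left) and of the second step (right) of round 1. Each point is 1 transcript and dotted lines mark 2-fold. The cloud slopes upward against the first step (r of 0.49) and hardly against the second (r of 0.13), and the points start at 1 on both horizontal axes because the rule required it.

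The largest differences in round 2 were those of c147842_g1_i2 and c207886_g1_i1. Transcript c147842_g1_i2 had 247 counts in full 2 (12.8 CPM) and 1 count in initial 2 (0.0256 CPM), a ratio of 502 with a 95% counting interval of 89.3 to 19915. In round 1 it stood at 0.556 CPM in full 1, 9.92 CPM in late full 1 and 38.4 CPM in abscission 1, so initial 2 was its lowest library with any count. Transcript c207886_g1_i1 stood at 99.3 CPM in full 2 and 1.38 CPM in initial 2, 72.0-fold higher in full 2 (95% interval 54.9 to 96.1). In round 1 this transcript stood at 1.01 CPM in full 1, 48.8 CPM in late full 1 and 263 CPM in abscission 1.

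Against this majority, 10 members were at least 2-fold lower in full 2 than in initial 2. Transcript c132500_g1_i2 stood at 5.46 CPM in full 2 and 70.6 CPM in initial 2, 12.9-fold lower in full 2 (95% interval 10.6 to 15.9). In round 1 it stood at 27.9 CPM in initial 1 (3 counts), 1.92 CPM in full 1, 4.86 CPM in late full 1 and 48.6 CPM in abscission 1. Its levels were thus high in initial 2 and abscission 1 and low in full 1, late full 1 and full 2. Transcript c143179_g3_i1 stood at 3.38 CPM in full 2 and 16.9 CPM in initial 2, 5.00-fold lower in full 2 (95% interval 3.87 to 6.56). In round 1 it stood at 27.9 CPM in initial 1 (3 counts), 14.3 CPM in full 1, 49.0 CPM in late full 1 and 193 CPM in abscission 1. Full 2 was the lowest of its 6 libraries.

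Summed over these 10 members, the level in round 1 was 372 CPM in initial 1 (95% interval 266 to 507, on 40 counts), 115 CPM in full 1, 286 CPM in late full 1 and 1745 CPM in abscission 1. In round 2 it was 137 CPM in full 2 and 466 CPM in initial 2. The 10 were picked on the round 2 pair and not on initial 1, and in initial 1 they also stood above full 1. Of the 40 counts in initial 1, 14 came from c119364_g2_i1, which is named after its values were seen. A related group is the 21 members at least 4-fold higher in initial 2 than in full 1, 4 of which are among the 10. The 21 were 7.78% of the 270 members with at least 50 counts in that pair, against 2.81% of all such transcripts. Summed over the 21, the level was 727 CPM in initial 2 (719 to 736), 465 CPM in initial 1 (345 to 613, on 50 counts) and 116 CPM in full 1. Both groups were formed after seeing values of round 2, and the 21 were picked on full 1 as well. By the rule, full 1 also lies below late full 1 and abscission 1 in all members. An initial 1 level above full 1 is favoured by these choices and is no separate support. Both groups are given as a description.

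**Figure D5:**
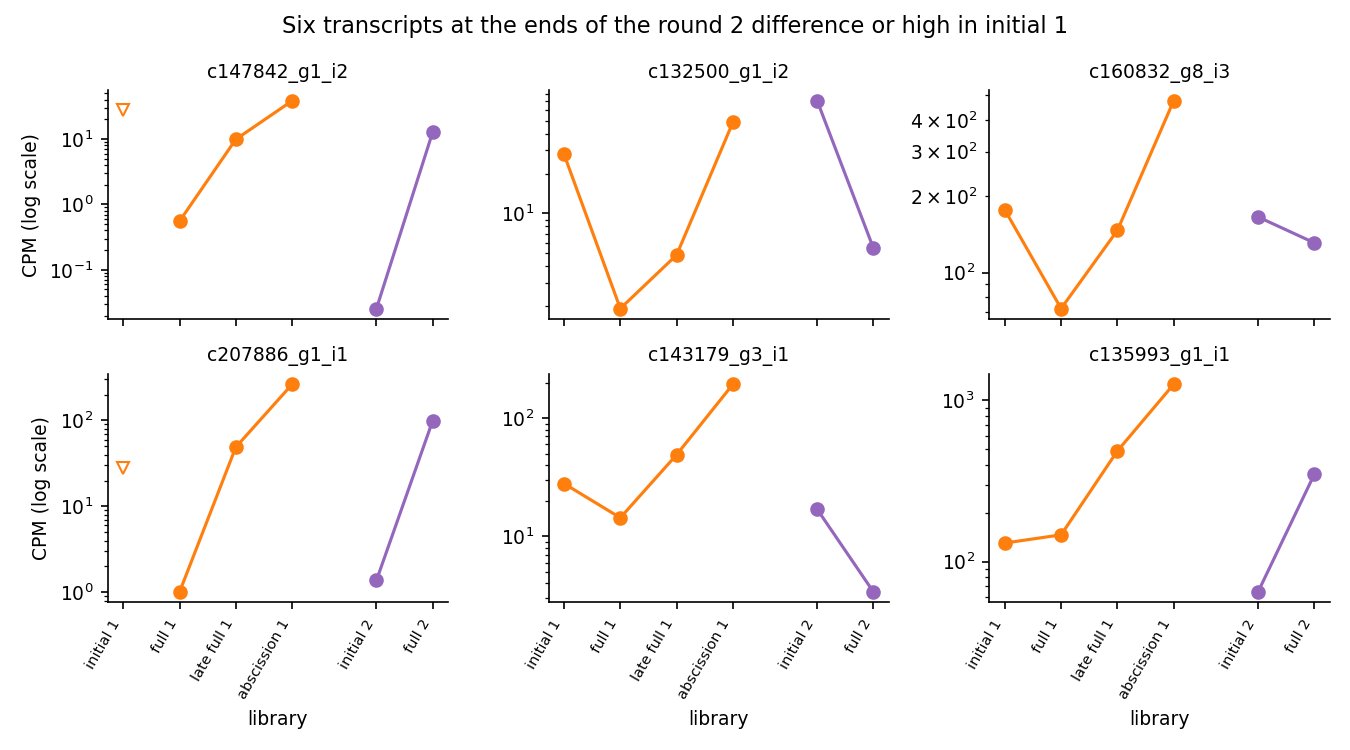
Levels in CPM (log axes that differ between panels) of 6 members in the 4 libraries of round 1 (orange) and the 2 of round 2 (purple): the 2 largest and 2 smallest ratios of full 2 to initial 2, the highest level in initial 1 (c160832_g8_i3) and 1 of the 2 members tied for the next highest (c135993_g1_i1). An open triangle stands at the floor of 3 counts (27.9 CPM) where initial 1 had 0 counts. The left 2 panels show full 2 far above initial 2, and c132500_g1_i2 and c143179_g3_i1 show it below.

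Initial 2 lay nearer to full 1 than to the later libraries in most members. Of 270 members with at least 50 counts in initial 2 and full 1 together, 66 (24.4%) were at least 2-fold higher in initial 2 than in full 1, against 11.7% of all transcripts, and 17 (6.30%) at least 2-fold lower, against 6.72%. The median log2 ratio of initial 2 to full 1 was 0.24 over these members and 0.10 over all transcripts. Full 1 was one of the libraries that chose the members, set by the rule below late full 1 and abscission 1. The members' share above it is therefore a description. In level, initial 2 was below full 1 in 118 members, between full 1 and late full 1 in 158, between late full 1 and abscission 1 in 24 and at or above abscission 1 in 2.

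On the members' course, full 2 mostly lay between full 1 and abscission 1. It was below full 1 in 7 members, between full 1 and late full 1 in 158, between late full 1 and abscission 1 in 133 and at or above abscission 1 in 4, or in 3, 159, 139 and 1 with TMM factors from the 5 deep libraries. Against full 1, 255 of 299 members (85.3%) were at least 2-fold higher in full 2, where 12.0% of all transcripts were, and 1 was at least 2-fold lower, c143179_g3_i1, where 19.5% of all transcripts were. Against late full 1, 208 of 302 members (68.9%) lay within 2-fold in full 2, where 71.3% of all transcripts did. Of the others, 41 (13.6%) were at least 2-fold higher and 53 (17.5%) at least 2-fold lower, beside 13.6% and 15.1% of all transcripts. Against abscission 1, 263 of 302 members (87.1%) were at least 2-fold lower in full 2, where 9.05% of all transcripts were. Full 1, late full 1 and abscission 1 chose the members, these comparisons share full 2, and nothing is read from the shares themselves. Summed over members, full 2 stood at 15899 CPM against 18161 CPM in late full 1, 0.875 times its level, and against 76141 CPM in abscission 1, 0.209 times its level.

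The 2 members highest in full 2 relative to abscission 1 were c160045_g8_i1 and c149324_g2_i1. Transcript c160045_g8_i1 stood at 42.2 CPM in full 2 and 21.0 CPM in abscission 1, 2.01-fold higher in full 2 (95% interval 1.78 to 2.28) and 1.67-fold with TMM factors from the 5 deep libraries. In the other deep libraries it stood at 5.05 CPM in full 1, 10.3 CPM in late full 1 and 4.40 CPM in initial 2, with 0 counts in initial 1. Transcript c149324_g2_i1 stood at 24.3 CPM in full 2 and 21.8 CPM in abscission 1, a ratio of 1.12 whose interval (0.973 to 1.28) includes equal levels, and 0.928 with TMM factors from the 5 deep libraries. It stood at 55.8 CPM in initial 1 (6 counts), 4.55 CPM in full 1, 9.84 CPM in late full 1 and 5.75 CPM in initial 2. Both members passed abscission 1 at only just over 20 CPM.

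The initial stage of round 1 bears on whether the rise began before full bloom. Summed over the 302 members, the level was 3769 CPM in full 1 and 4020 CPM in initial 1 (432 counts), a ratio of 0.938 with a 95% interval of 0.853 to 1.03 that includes equal levels. With TMM factors from the 6 libraries the direction turned, to a log2 ratio of 0.43. A steady rise is thus shown only from full 1 on, by the rule itself, and a change from initial 1 to full 1 was not determined. Initial 2 summed to 5157 CPM and initial 1 to 4020 CPM, a ratio of 1.28 (95% interval 1.17 to 1.41, counting error only). This ratio is on column totals, and its interval does not cover the choice of scaling. The TMM factors from the 6 libraries were 1.51 for initial 1 and 1.11 for initial 2, which would make the ratio larger.

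The member highest in initial 1 was c160832_g8_i3, followed by c135993_g1_i1 and c119364_g2_i1, which were tied at 14 counts there. Transcript c160832_g8_i3 stood at 177 CPM in initial 1 (19 counts), 72.2 CPM in full 1, 147 CPM in late full 1 and 476 CPM in abscission 1, and in round 2 at 131 CPM in full 2 and 166 CPM in initial 2. It was 2.45-fold lower in full 1 than in initial 1 (95% interval 1.47 to 3.84). With TMM factors from the 6 libraries the ratio of full 1 to initial 1 was 0.586 (0.374 to 0.976), against 0.409 on column totals. Picking the member highest in initial 1, on 19 counts, favours such a fall. In round 2 the ratio of full 2 to initial 2 was 0.790 (95% interval 0.755 to 0.828), but with TMM factors from the 6 libraries it was 1.01, so the direction in round 2 depends on scaling. Transcript c135993_g1_i1 stood at 130 CPM in initial 1 (14 counts), 146 CPM in full 1, 485 CPM in late full 1 and 1258 CPM in abscission 1. In round 2 it was 5.37-fold higher in full 2, at 347 CPM, than in initial 2, at 64.7 CPM (95% interval 5.13 to 5.62), while full 1 and initial 1 differed by less than counting error. Transcript c119364_g2_i1 stood at 130 CPM in initial 1, 17.7 CPM in full 1, 41.3 CPM in late full 1 and 521 CPM in abscission 1, and in round 2 at 22.8 CPM in full 2 and 112 CPM in initial 2. It is one of the 10 members at least 2-fold lower in full 2 than in initial 2.

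The first part of each ID was read as an assembly component, a group of contigs that share sequence. This reading rests on the form of the IDs, since the assembler is not given in the sources used. The 302 members came from 286 components, 272 of which held 1 member, 12 held 2 and 2 held 3. Of the components with 3 members, c161885 was the more abundant. Its members were c161885_g2_i1 (above), c161885_g3_i1 and c161885_g6_i1. Transcript c161885_g3_i1 stood at 9.75 CPM in full 1, 577 CPM in late full 1, 2973 CPM in abscission 1, 302 CPM in full 2 and 22.3 CPM in initial 2. Transcript c161885_g6_i1 stood at 0.808 CPM in full 1, 17.6 CPM in late full 1, 144 CPM in abscission 1, 17.5 CPM in full 2 and 0.920 CPM in initial 2. All 3 were higher in full 2 than in initial 2, 10.04-fold for c161885_g2_i1 (95% interval 9.31 to 10.8), 13.5-fold for c161885_g3_i1 (12.6 to 14.6) and 19.0-fold for c161885_g6_i1 (13.5 to 27.6). Close copies can share reads, and whether these 3 are separate genes was not tested.

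Other transcripts of the members' components were less often higher in full 2 than the members were. Of 255 such non-members, 176 had at least 50 counts in full 2 and initial 2 together. Of these, 40 (22.7%) were at least 2-fold higher in full 2 and 35 (19.9%) at least 2-fold lower, beside 12.6% and 30.3% of all transcripts. The median log2 ratio of full 2 to initial 2 was -0.05 in these non-members, against 1.87 for the members and -0.41 for all transcripts. In round 1, 54 of 167 (32.3%) were at least 2-fold higher in abscission 1 than in full 1, where 11.0% of all non-members were.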

How the data were processed

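Petal messenger RNA was sequenced from 6 libraries, 1 per stage and round, each pooled from 5 replicates per the series' design text. The authors deposited estimated counts for 96596 de novo assembled transcripts, with no scaling, in which 36 to 855 values per column were not whole. The submitters' processing notes name CASAVA 1.7. Which assembler, aligner and counter were used is not given in the sources used here. Counts were rounded; members were the same 302 with unrounded counts.

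CPM are counts over column totals. Ratios across transcripts used 2 prior counts scaled to library size and pairs with at least 50 counts; folds of named transcripts and of sums used none and have 95% Clopper-Pearson intervals. Alternatives were TMM factors (edgeR 4.0.16), DESeq2 1.42.0 size factors, thinning, and other thresholds. The calculation was also run on simulated counts, with planted rises well above the threshold and counting noise only. That run left out the minimum level at abscission and the exclusion of the most abundant transcripts. It therefore does not check members near the threshold or on low counts. Software was R 4.3.3, Python 3.11.15, SciPy 1.17.1, NumPy 2.4.6, pandas 2.3.3 and matplotlib 3.10.9.

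Named transcripts are at most 2 per direction and comparison: extremes of level at abscission 1 and initial 1, of abscission 1 to full 1, of full 2 to initial 2 (at least 200 counts in the higher library) and of full 2 to abscission 1, the nearest to the threshold on each side, and the component with most members, ties going to the more abundant at abscission 1. The members, courses and tests were chosen with earlier results of these data known. Gene lists could not be applied to IDs without names.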

Additional observations from a re-analysis of the deposited data

Results flagged for a closer look

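Among the transcripts named above, c149324_g2_i1 moved opposite ways from the initial stage to full bloom in the 2 rounds, each beyond counting error. Full 2 was 4.22 times initial 2 (95% interval 3.59 to 4.97), while full 1 was 0.0814 times initial 1 (95% interval 0.0360 to 0.228). The value of round 1 rests on 6 counts in initial 1, and the difference between the rounds was not tested. Intervals were given for named transcripts only, and picking 1 from many members on so few counts favours such a contrast. Other members had the same directions, among them c153148_g5_i1 (6 counts in initial 1) and c208980_g1_i1 (8 counts). Transcript c149324_g1_i4, a member of the same component as c149324_g2_i1, had 0 counts in initial 1.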

How the results depend on the processing

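No paired analysis was possible because each group is 1 library and no test was made. The 302 members became 480 with TMM factors from the 6 libraries and 468 with DESeq2 size factors, 300 of the 302 being kept in each, 511 with steps of at least 1.5-fold and 125 with steps of at least 3-fold. Members at least 2-fold higher in full 2 than initial 2 numbered 210, where 12.6% of all transcripts were. With members chosen again under TMM (5 deep libraries) they numbered 337 of 448 (75.2%), against 17.1% of all transcripts on that scale. With 3-fold steps they numbered 99 of 123 (80.5%), against 12.6%. Those lower numbered 10, or 1 with 3-fold steps, against 30.3% of all transcripts in both settings. At a 4-fold threshold 3 were lower, against 11.2%. The median log2 ratio of full 2 to initial 2 was 1.87, and 2.22 with TMM from the 6 libraries, 2.20 with TMM from the 5 deep libraries, 2.24 with DESeq2 factors and 2.32 with 3-fold steps. Its distance from the median of all transcripts ran from 2.02 to 2.73 over the alternatives. The log2 ratio of the summed levels in that pair was 1.62, and 1.98, 1.96 and 2.003 under the same 3 scalings, 1.59 without the 10 most abundant members and 2.07 with 3-fold steps. Members at least 2-fold higher in full 2 than full 1 numbered 255, or 115 of 122 with 3-fold steps. Of all transcripts, 12.0% were so in both settings. When chosen again under TMM they numbered 385 of 447, against 15.9% of all transcripts, and at a 4-fold threshold 157, against 5.20%. The summed log2 ratio of full 1 to initial 1 was -0.09 and turned to 0.43 with TMM and to 0.10 with 3-fold steps, on 432 counts in initial 1 at most. Other settings, among them thinning the 5 deep libraries to equal depth, prior count, count minimums and keeping the 100 most abundant transcripts in, moved no count by more than 1.5 times and turned no direction. Chosen after seeing the data were the 3 scalings for single transcripts and for the place of full 2. The ratio of full 2 to initial 2 of c160832_g8_i3 was 0.790 and turned to 1.01 with TMM from the 6 libraries and 1.03 with DESeq2 factors, both with intervals that include equal levels. Depth limits every value from initial 1.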
